A study of Mus musculus with 32 samples.

Results

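Immediate early genes are switched on within minutes of a stimulus, without new protein synthesis, when calcium, cAMP or MAP kinase signals reach factors such as SRF and CREB that already sit on their promoters. Their transcripts are short-lived. In brain they are used as marks of recent neuronal firing, and several also respond to growth factors, stress and cell-cycle state in cells that do not fire. The 10 followed here were chosen by symbol, and all 10 are among the 55291 gene symbols of every count table. Fos, Fosb and Junb encode AP-1 subunits, and Egr1 a zinc-finger factor. Npas4 encodes an activity-dependent bHLH-PAS factor and Nr4a1 an orphan nuclear receptor. Arc encodes a synaptic protein that controls AMPA receptor traffic. Dusp1 encodes a phosphatase that switches MAP kinases off, Btg2 an antiproliferative co-regulator made in neurogenic progenitors, and Ier2 a nuclear protein induced by growth factors.

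The libraries came from brains of C57BL/6J mice that were wild type (WT, Dhcr7+/+) or lacked Dhcr7 (KO, Dhcr7-/-), the reductase that turns 7-dehydrocholesterol into cholesterol. Loss of it in people causes Smith-Lemli-Opitz syndrome. Brains were taken on the embryonic days E12.5, then E14.5, then E16.5, and at birth (postnatal day 0, PND0), with 4 libraries in each of the 8 groups and 32 in all. The labels name no agent or treatment, and do not give the litter, the sex, the mutant allele's design or the hour of collection. They also do not say whether 4 libraries of a group were 4 litters, so the p-values measure the spread between these libraries. Each stage was deposited as its own table, so stage and anything handled by stage cannot be told apart. In whole brain, fewer cells of a type and less RNA per cell cannot be told apart either.

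Libraries held between 13.87 and 28.32 M counts, and 3 counts, the most that a count of 0 allows, were worth 0.106 to 0.216 CPM. CPM is the count scaled to a common depth, here with TMM factors over all 32 libraries. Dhcr7 was lower in KO at every stage: 63.6 to 72.0 CPM in WT against 15.6 to 26.7 in KO at E12.5, and 89.2 ± 19.6 against 14.4 ± 2.01 (SD, n = 4 each) at PND0, with no overlap at any stage. Its log2 fold change ran from -1.64 at E12.5 (edgeR adjusted p = 0.00824) to -2.63 at PND0 (adjusted p = 5.6e-06). The share of counts in a ribosomal RNA gene, CT010467.1, reached 3.75% for WT replicate 1 of E16.5, the highest of that group, and 5.64% for KO replicate 1 of E12.5. By their expression of a Y-linked gene, each group held both sexes, with 1 to 3 male libraries of 4. Summed levels of 9 neuron markers rose over WT development, from between 2440 and 4454 CPM at E12.5 to between 5800 and 6692 CPM at PND0, and those of 8 progenitor markers went from between 1971 and 2712 to between 1180 and 1238 CPM. No marker of either list was at 0.

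In WT brain the 10 genes did not move as one. From E12.5 to PND0, Fos, Egr1, Arc, Npas4 and Nr4a1 rose, Btg2 and Ier2 fell, and neither Junb nor Dusp1 passed the test. Fosb was also higher at PND0, but it met the low-count filter only through its newborn libraries, where it is high, so its call is no support. The largest fitted step of Npas4 was the first, between E12.5 and E14.5, whereas those of Fos, Egr1, Nr4a1 and Arc lay between E16.5 and birth. Fosb was tested only at the last of these steps, so its steps cannot be ranked. Between KO and WT, Fosb was tested only at PND0. With the edgeR fit of each stage 0 members passed, of 9 tested at each embryonic stage and 10 at PND0. That fit called 0.0177%, 0.527%, 0.0462% and 1.44% of all tested genes from E12.5 to PND0. DESeq2 called 0 members too, but it did not judge all of them. It gave no adjusted p to any tested member at E16.5, where 6382 genes kept one. Nor did it give one to Fos, Junb, Egr1, Arc and Npas4 at E14.5 or to Fosb at PND0. An unadjusted edgeR p under 0.05 was found for 1, 3, 0 and 1 of the 9, 9, 9 and 10 tested members, beside 4.7%, 8.73%, 11.5% and 18% of all genes. At PND0 1 member passed with a replicate block or with all 32 libraries in 1 fit (Nr4a1), and 1 with no filter on low counts (Dusp1). The difference nearest to the threshold at PND0 was Nr4a1, at 42.5 ± 14.4 CPM in KO against 24.7 ± 7.77 in WT (mean ± SD, n = 4 each).

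**Figure D1:**
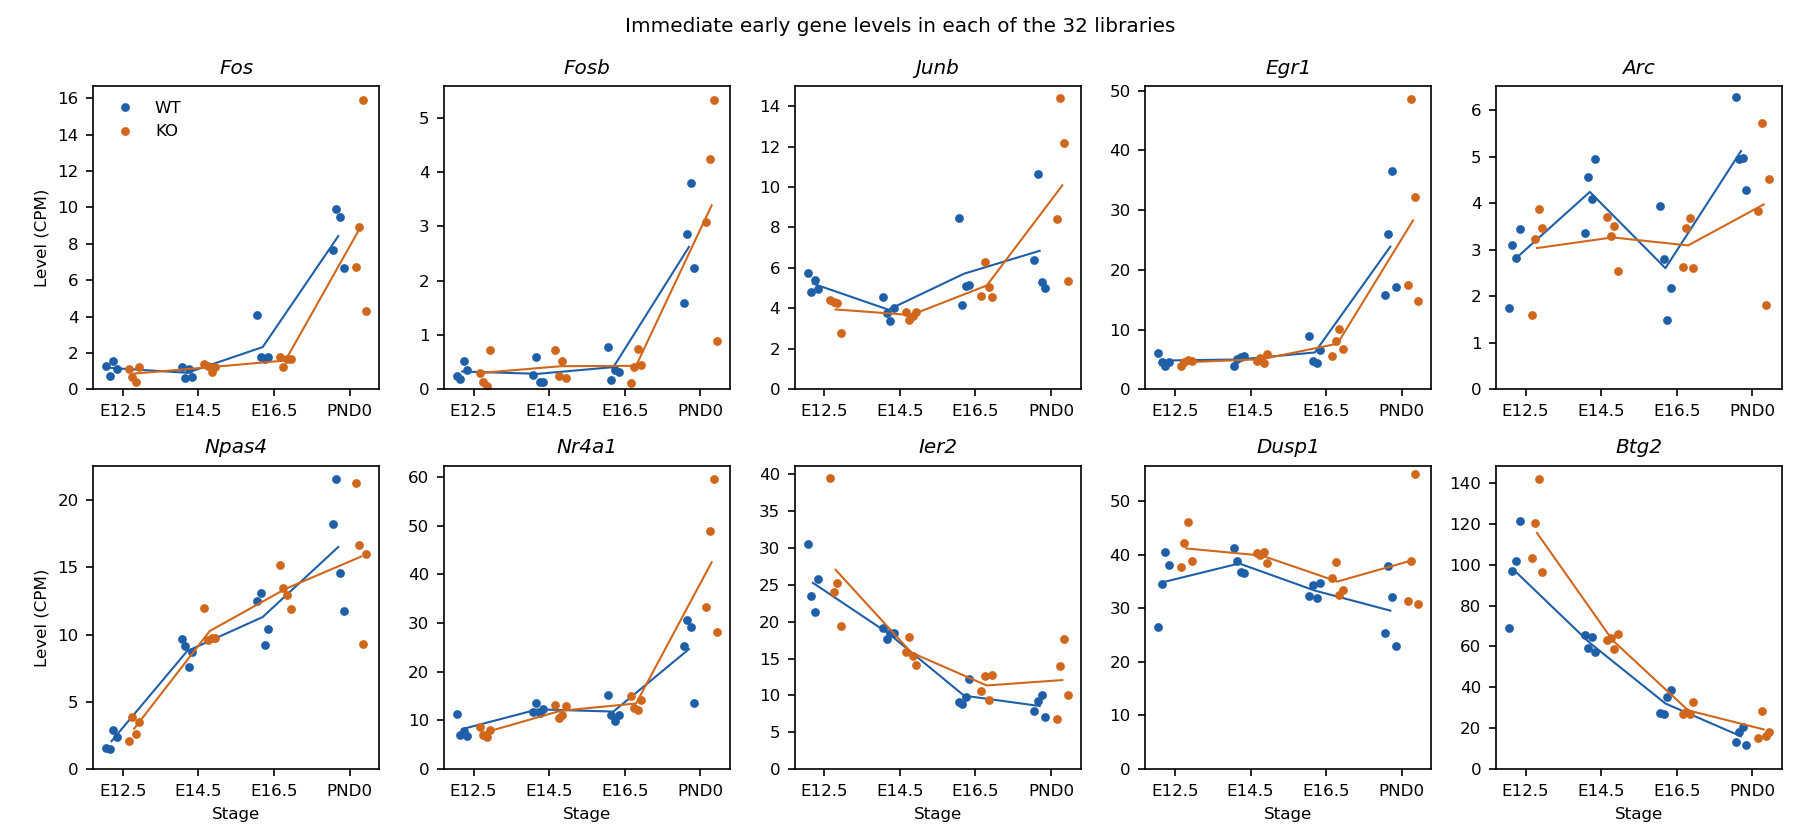
Level of each of the 10 genes (CPM, TMM-scaled, linear axis from 0) in every library, by stage, with WT in blue and KO in orange; each point is 1 library and lines join group means. In 7 panels the WT mean is highest at PND0 (Fos, Fosb, Junb, Egr1, Arc, Npas4, Nr4a1), Ier2 and Btg2 descend, and KO points lie among WT points in most panels.

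Promoters are shown for 5 members because they cover the courses seen: Fos, Nr4a1 and Npas4, which rose, Dusp1, which did not pass the test from E12.5 to PND0, and Btg2, which fell. Each line gives the 250 bases before the start of transcription, 5′ to 3′ on the gene's own strand, from RefSeq (GRCm38.p6). Capitals mark TGACG or its reverse complement CGTCA, the core of the cAMP response element that CREB binds. Adjoining or overlapping matches, as in the full element TGACGTCA, form 1 run of capitals.
Fos (chr12:85473640-85473889, plus strand): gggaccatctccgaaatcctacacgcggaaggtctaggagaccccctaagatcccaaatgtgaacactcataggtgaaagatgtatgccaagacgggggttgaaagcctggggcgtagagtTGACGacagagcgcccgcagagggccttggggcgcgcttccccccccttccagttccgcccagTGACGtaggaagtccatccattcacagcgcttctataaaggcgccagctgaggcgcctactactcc
Nr4a1 (chr15:101266596-101266845, plus strand): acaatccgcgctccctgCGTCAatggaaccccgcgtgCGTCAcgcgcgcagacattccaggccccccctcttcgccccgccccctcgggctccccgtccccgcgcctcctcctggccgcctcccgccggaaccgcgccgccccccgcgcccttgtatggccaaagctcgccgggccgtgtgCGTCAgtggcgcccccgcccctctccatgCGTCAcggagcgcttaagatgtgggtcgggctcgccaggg
Npas4 (chr19:4989972-4990221, minus strand): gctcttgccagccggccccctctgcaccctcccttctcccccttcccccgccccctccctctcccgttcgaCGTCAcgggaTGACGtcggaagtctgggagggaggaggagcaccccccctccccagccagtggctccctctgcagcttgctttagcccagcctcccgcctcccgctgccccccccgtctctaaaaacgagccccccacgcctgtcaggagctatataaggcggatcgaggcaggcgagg
Dusp1 (chr17:26508473-26508722, minus strand): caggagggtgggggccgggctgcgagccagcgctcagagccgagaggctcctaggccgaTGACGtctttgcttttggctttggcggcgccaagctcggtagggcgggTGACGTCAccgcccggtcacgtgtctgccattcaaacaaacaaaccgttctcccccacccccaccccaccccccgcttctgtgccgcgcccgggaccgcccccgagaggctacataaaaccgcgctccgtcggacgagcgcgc
Btg2 (chr1:134079156-134079405, minus strand): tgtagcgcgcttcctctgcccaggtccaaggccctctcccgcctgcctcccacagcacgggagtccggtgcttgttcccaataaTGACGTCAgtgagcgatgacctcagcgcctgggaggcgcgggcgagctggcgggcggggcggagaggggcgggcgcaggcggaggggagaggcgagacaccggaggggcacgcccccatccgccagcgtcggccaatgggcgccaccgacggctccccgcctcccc
RefSeq promoters were matched for 7 of the 10 genes, those 5 plus Fosb and Junb. TGACG, on either strand, was in all 7, against 17.8% of 32851 promoters of the same length. The full TGACGTCA, whose both strands hold TGACG, was in 2 of the 7, Btg2 and Dusp1, against 1.5% of all. GCGGGGGCG, the sequence bound by EGR1, was in Fosb and Nr4a1, 2 of the 7, against 2.6%. TATAA on either strand was in Fos and Npas4, 2 of the 7, against 22.8%. A CArG box of exact consensus, the SRF site, was in 0 of the 7 windows and in 1.5% of all. Sites farther from the start or of looser spelling were not searched for. Promoters of genes that rose, that fell and that did neither by the test all held the same core. A match is a description of letters and not a measured binding site.

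Fos, the AP-1 partner of the Jun proteins, lies at chr12:85473890-85477273 (GRCm38, 4 exons). The 4 WT libraries read 1.27, 0.731, 1.55 and 1.13 CPM at E12.5 and 1.21, 0.638, 1.10 and 0.678 at E14.5. At E16.5 they read 4.07, 1.76, 1.67 and 1.79 CPM, and at PND0 7.64, 9.89, 9.50 and 6.67. Every PND0 library was above every earlier one, and replicate 1 stood alone at E16.5. The PND0 mean was 9.3 times the E14.5 mean, the lowest of the 4. Fos rose from E14.5 to E16.5 by a log2 fold change of 1.38 (SE 0.34, edgeR adjusted p = 0.00253). Without E16.5 WT replicate 1 that step was 0.96 (adjusted p = 0.014). It rose again from E16.5 to PND0 by 1.83 (SE 0.273, adjusted p = 6.78e-05). KO libraries at PND0 ranged from 4.29 to 15.9 CPM and spanned the whole WT range. In KO the highest stage was PND0 for 7 members, the same 7 as in WT.

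Fosb, a paralog of Fos and also an AP-1 subunit, lies at chr7:19302696-19310051 (minus strand, 4 exons). Before birth it was at the edge of detection, with 1 to 17 counts in each of the 24 embryonic libraries. It therefore failed the low-count filter in every comparison of embryonic libraries alone. At PND0 WT libraries read 1.58, 2.85, 3.799 and 2.24 CPM, against 0.774, 0.176, 0.359 and 0.319 at E16.5, with no overlap. The log2 fold change was 2.65 (SE 0.428, edgeR adjusted p = 0.000126), in a test that Fosb entered only through its PND0 libraries. In KO at PND0 it read 3.08, 4.25, 5.32 and 0.894 CPM, so replicate 4 lay below every WT library and the other 3 among or above them.

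Junb, an AP-1 subunit with a single exon at chr8:84974484-84978718 (minus strand), moved little. Its span overlaps Prdx2 on the other strand, and the sources used here do not say whether counting used strand. Exons were not compared, so whether the pair shares reads was not tested. WT libraries read 5.73, 4.81, 5.41 and 4.94 CPM at E12.5, then 4.55, 3.76, 3.40 and 4.03 at E14.5. At E16.5 they read 8.45, 4.15, 5.08 and 5.17 CPM, and at PND0 6.39, 10.65, 5.31 and 5.03. The E12.5 libraries all lay above those of E14.5, whereas E16.5 and PND0 overlapped. Junb fell from E12.5 to E14.5 by 0.43 on the log2 scale (SE 0.142, edgeR adjusted p = 0.0236) and rose from E14.5 to E16.5 by 0.56 (SE 0.202, adjusted p = 0.0271). Neither call was firm: the fall missed the threshold without any one of 3 libraries (E12.5 WT replicate 1, E14.5 WT replicates 2 and 3; adjusted p up to 0.0638). The rise missed it without any one of 4 (E14.5 WT replicates 2, 3 and 4, E16.5 WT replicate 1), and was 0.29 (adjusted p = 0.153) without the last. In 1 edgeR fit of all 32 libraries both missed it (adjusted p = 0.157 for the fall and 0.0676 for the rise). The fall also missed it with no filter on low counts (edgeR adjusted p = 0.069).

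Egr1, which encodes a zinc-finger factor and lies at chr18:34859823-34864984 (2 exons), changed at 1 step only by the test. WT libraries read 6.15, 4.57, 3.91 and 4.62 CPM at E12.5 and 3.93, 5.10, 5.33 and 5.59 at E14.5. They read 8.97, 4.68, 4.42 and 6.57 CPM at E16.5 and 15.8, 26.1, 36.5 and 17.2 at PND0. No PND0 library overlapped an earlier one, yet the PND0 libraries differed among themselves by 2.31 times. Egr1 rose from E16.5 to PND0 by 1.93 (log2, SE 0.318, edgeR adjusted p = 0.000649), and neither earlier step passed (0.03, adjusted p = 0.908, and 0.32, adjusted p = 0.206).

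Npas4, a factor induced in neurons by calcium entry, lies at chr19:4984355-4990316 (minus strand, 6 exons). Its largest rise was the first one. WT libraries read 1.57, 1.46, 2.88 and 2.40 CPM at E12.5 and 9.64, 9.14, 7.62 and 8.69 at E14.5, with no overlap. They read 12.52, 13.1, 9.21 and 10.4 CPM at E16.5 and 18.2, 21.6, 14.6 and 11.8 at PND0. The first step was a log2 rise of 2.04 (SE 0.205, edgeR adjusted p = 2.74e-05). Later steps were smaller, 0.39 (SE 0.129, adjusted p = 0.0175) and 0.51 (SE 0.18, adjusted p = 0.0263), with overlapping neighbours. The second step missed the threshold without E14.5 WT replicate 3 or E16.5 WT replicate 1 or 2 (adjusted p up to 0.0621). It also missed it in 1 edgeR fit of all 32 libraries (adjusted p = 0.127). The last missed it without E16.5 WT replicate 3 or 4 or PND0 WT replicate 1 or 2 (adjusted p up to 0.10).

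Nr4a1, the orphan nuclear receptor, spans chr15:101254269-101274795 (8 exons). WT libraries read 11.3, 7.01, 7.83 and 6.76 CPM at E12.5 and 11.7, 13.6, 11.5 and 12.3 at E14.5. They read 15.2, 11.1, 9.98 and 11.1 CPM at E16.5 and 25.2, 30.7, 29.2 and 13.5 at PND0. Of the newborn libraries 3 stood above all others, and replicate 4 lay within the embryonic range. Nr4a1 rose from E12.5 to E14.5 by 0.56 (log2, SE 0.164, edgeR adjusted p = 0.0142; 0.47 and adjusted p = 0.051 with a sex-gene covariate). It did not pass from E14.5 to E16.5 (-0.04, adjusted p = 0.821) and rose by 1.03 to PND0 (SE 0.231, adjusted p = 0.00278).

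Arc, the synaptic effector at chr15:74669083-74672570 (minus strand, 3 exons), went up, down and up. WT libraries read 1.75, 3.11, 2.82 and 3.45 CPM at E12.5 and 3.35, 4.57, 4.09 and 4.96 at E14.5. They read 3.94, 2.81, 1.49 and 2.17 CPM at E16.5 and 6.28, 4.94, 4.97 and 4.28 at PND0. Of these groups only E16.5 and PND0, and E12.5 and PND0, did not overlap. The log2 steps were 0.57 (SE 0.216, edgeR adjusted p = 0.0426), -0.69 (SE 0.239, adjusted p = 0.022) and 0.95 (SE 0.265, adjusted p = 0.00768). The first step was lost without any one of 6 of its 8 libraries, all but E12.5 WT replicate 4 and E14.5 WT replicate 1 (adjusted p up to 0.11). It was also lost in 1 edgeR fit of all 32 libraries (adjusted p = 0.0737). The second was lost without any one of 4 (E14.5 WT replicates 2 and 4, E16.5 WT replicates 3 and 4; adjusted p up to 0.0732). The third held without each library in turn.

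Ier2 and Btg2 went the other way. Ier2, a single-exon gene at chr8:84661331-84662852 (minus strand), read 30.5, 23.5, 21.4 and 25.8 CPM in WT at E12.5 and 19.1, 17.6, 18.5 and 18.5 at E14.5. It read 9.16, 8.77, 9.74 and 12.2 CPM at E16.5 and 7.86, 9.25, 10.1 and 7.07 at PND0. Only the last pair of stages overlapped. Ier2 fell by 0.48 (log2, SE 0.107, edgeR adjusted p = 0.00308) and then by 0.86 (SE 0.108, adjusted p = 4.57e-06), and its last step of -0.25 did not pass (adjusted p = 0.198).

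Btg2, the antiproliferative gene at chr1:134075170-134079120 (minus strand, 2 exons), had the clearest order of stages. WT libraries read 69.3, 96.9, 101.6 and 121.3 CPM at E12.5 and 65.7, 59.4, 64.6 and 57.3 at E14.5. They read 27.6, 26.8, 35.3 and 38.7 CPM at E16.5 and 13.2, 18.4, 20.7 and 11.9 at PND0. No 2 neighbouring stages overlapped, and the E12.5 mean was 6.06 times the PND0 mean. The log2 falls were -0.68 (SE 0.142, edgeR adjusted p = 0.00326), -0.92 (SE 0.11, adjusted p = 1.51e-05) and -1.03 (SE 0.177, adjusted p = 0.000289), and each held without each library in turn. Of 8 progenitor markers 6 were called lower, as Btg2 was, and 2 higher at PND0 than at E12.5, with a median log2 fold change of -1.57. Neuron markers were called higher in 9 of 9, with a median of 1.43, as were Fos, Npas4 and the other risers. Of all tested genes 34.5% were called as higher and 36.4% as lower, with a median of -0.05. The part of cell composition in these courses was not tested.

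Dusp1, the MAP kinase phosphatase, was the flattest, with group means in WT within 1.3 times of each other. Its span (chr17:26505590-26562128, minus strand, 3 exons) overlaps 4 other annotated genes, 2 of them on the other strand (Ergic1 and Gm8225). Whole spans were compared and not exons, so whether Dusp1 shares reads with them was not tested. WT libraries ranged from 26.5 to 40.5 CPM at E12.5 and from 36.6 to 41.3 at E14.5. They ranged from 31.8 to 34.7 at E16.5 and from 22.9 to 37.8 at PND0. Neighbours in the order of level overlapped in every case, although E14.5 and E16.5, which are not neighbours in it, did not. Only the step from E14.5 to E16.5 passed (-0.18 log2, SE 0.0667, edgeR adjusted p = 0.0273). It was lost without E14.5 WT replicate 1 or 2 or E16.5 WT replicate 3 (adjusted p up to 0.0754). In 1 edgeR fit of all 32 libraries it was lost as well (adjusted p = 0.289). From E16.5 to PND0 the change of -0.20 missed the threshold (adjusted p = 0.21) and passed without PND0 WT replicate 2 (-0.34, adjusted p = 0.0298).

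The counts of members called at each step are set beside those of all genes, with no test of the difference. From E12.5 to E14.5, 6 of 9 tested members were called, 3 higher and 3 lower, where 57.8% of 17942 tested genes were called, 27.3% as higher and 30.5% as lower. From E14.5 to E16.5 it was 7 of 9, 3 higher and 4 lower, against 57.5% of all genes, 29.3% as higher and 28.2% as lower. From E16.5 to PND0 it was 7 of 10, 6 of them higher and 1 lower, where 53.2% of all genes were called, 26% as higher and 27.2% as lower. Without Fosb, which had to differ to be tested there, it was 6 of 9, 5 higher and 1 lower. The members' median log2 fold change at that step was 0.73, or 0.51 without Fosb, beside -0.006 over all tested genes. From E12.5 to PND0, 8 of 10 were called (6 higher, 2 lower) against 70.9% of all genes, 34.5% as higher and 36.4% as lower, with a median of 1.26 beside -0.05. Without Fosb it was 7 of 9, 5 higher and 2 lower, with a median of 0.90. Groups did not overlap for 5, 4 and 5 of the 10 at the consecutive steps, where 56.1%, 55.5% and 49.2% of genes of at least 1 CPM did not. From E12.5 to PND0 it was 8 of the 10, where 67.7% of those genes did not. Fosb is among the 5 at the last step and the 8 of the whole course. It reaches a mean of 1 CPM only through its PND0 libraries, so its place there is no support.

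**Figure D2:**
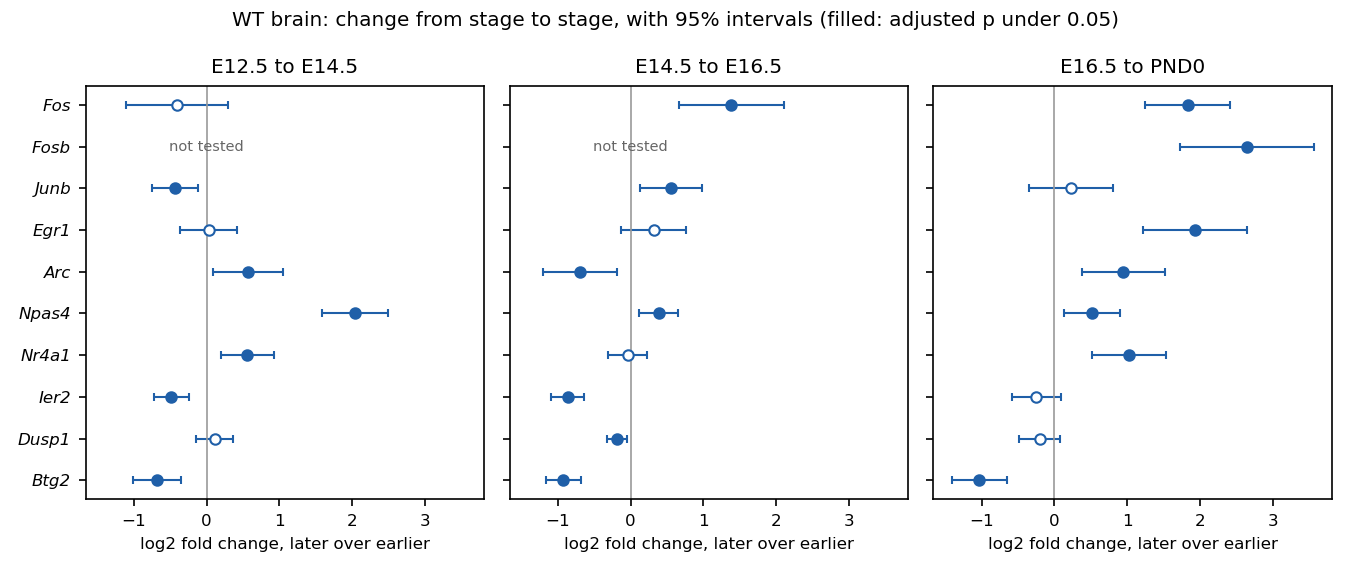
Log2 fold change of each gene between consecutive stages in WT brain (x axis, later over earlier) with 95% intervals; filled points passed the adjusted threshold. Npas4 stands out at the first step (2.04), and Fosb (2.65), Egr1 (1.93) and Fos (1.83) at the last, with Btg2 to the left in all 3 panels. Fosb was tested only at the last step, which it entered through its PND0 libraries.

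Per length of transcript, which allows levels to be set between genes, Btg2 led at E12.5 with 35.5 ± 7.82 CPM per kb in WT, ahead of Ier2 with 16.6 ± 2.58 and Dusp1 with 15.1 ± 2.64 (SD, n = 4). Fos (0.555 ± 0.162) and Npas4 (0.548 ± 0.179) were next to last and within their spread of each other, and Fosb was last at 0.0863 ± 0.0392. At PND0 the order had changed. Dusp1 at 12.8 ± 2.92 and Nr4a1 at 9.66 ± 3.04 CPM per kb came first and overlapped within their spread. Btg2 (5.85 ± 1.53), Ier2 (5.62 ± 0.885), Egr1 (5.33 ± 2.13), Npas4 (4.36 ± 1.13), Fos (4.0 ± 0.725) and Junb (3.78 ± 1.44) followed, and neighbours among them did not differ beyond their spread. Arc, at 1.68 ± 0.274, and Fosb, at 0.692 ± 0.249, were the lowest. These values divide by the longest annotated transcript, so a gene that uses a shorter one is set too low.

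Loss of Dhcr7 was then compared with WT at each stage. At E12.5, 0 of 9 tested members passed the threshold, where 0.0177% of 16948 genes did. Junb gave the smallest p of the members, and the only one under 0.05 without adjustment, where 4.7% of all genes were. KO libraries read 4.41, 4.30, 4.29 and 2.79 CPM, all below the WT libraries, which began at 4.81. It was the only member of 10 whose groups did not overlap, against 2.53% of genes of at least 1 CPM. Its log2 fold change was -0.43 (SE 0.18, 95% interval -0.83 to -0.02, edgeR unadjusted p = 0.0407, adjusted p = 0.875), and -0.29 without KO replicate 4. Npas4 was at 3.01 ± 0.842 CPM in KO and 2.08 ± 0.679 in WT (0.52, interval -0.12 to 1.15, adjusted p = 0.875), and the groups overlapped. Fosb was not tested.

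E14.5 was the stage with the least spread between libraries, and again 0 of 9 members passed, where 0.527% of all genes did. Intervals were narrow there, and for Dusp1, Btg2 and Nr4a1 they lay within -0.24 and 0.18 on the log2 scale. Unadjusted p fell under 0.05 for 3 members, beside 8.73% of all genes. Ier2 read 15.9, 17.9, 15.4 and 14.1 CPM in KO, against 17.6 to 19.1 in WT (-0.21, interval -0.38 to -0.03, edgeR adjusted p = 0.445). Arc read 3.70, 3.30, 3.50 and 2.55 CPM in KO against 3.35 to 4.96 in WT (-0.37, interval -0.73 to -0.02, adjusted p = 0.553). Npas4 was the opposite case, at 9.59 to 11.96 CPM in KO and 7.62 to 9.64 in WT (0.23, interval 0.001 to 0.46, adjusted p = 0.57). In each of the 3 genes at least 1 KO library lay within the WT range.

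At E16.5, 0 of 9 tested members passed, where 0.0462% of all genes did, and 0 had an unadjusted p under 0.05 by edgeR, where 11.5% of all genes did. The widest difference was in Fos, at 1.25 to 1.75 CPM in KO against 1.67 to 4.07 in WT (-0.56, interval -1.19 to 0.08, adjusted p = 0.491). Without E16.5 WT replicate 1, the high library named above, the Fos difference was -0.14 (adjusted p = 0.813). With the share of the ribosomal RNA gene as a covariate, a share highest in that library, it was also -0.14 (adjusted p = 0.815). The covariate cannot be told apart here from leaving that library out, and the cause was not tested.

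At birth 8 of the 10 log2 fold changes were positive, with a median of 0.32 beside -0.001 over all tested genes, but 0 of 10 passed the threshold, where 1.44% of 17420 genes did. Nr4a1 read 33.3, 48.9, 59.7 and 28.2 CPM in KO and 25.2, 30.7, 29.2 and 13.5 in WT. The upper 3 KO libraries lay above all WT libraries, and the lowest, replicate 4, lay among them. The log2 fold change was 0.79 (SE 0.315, 95% interval 0.06 to 1.51, edgeR unadjusted p = 0.0365, adjusted p = 0.237). It was the only one of the 10 with an unadjusted p under 0.05, where 18% of all genes had one. It passed in a fit of all 32 libraries together (0.78, adjusted p = 0.0213) and with the replicate number as a block (0.78, adjusted p = 0.0149), although the numbers do not pair the libraries. In the other alternatives its adjusted p lay between 0.149 and 0.86. The share of that ribosomal RNA gene moved with genotype at this stage, at 1.8% to 2.78% of counts in WT and 1.16% to 2.09% in KO, and with that share as a covariate the Nr4a1 difference was 0.51 (adjusted p = 0.86).

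Junb, Ier2, Dusp1 and Fosb had log2 fold changes of 0.37 to 0.56 at PND0, with intervals that reached below 0. Junb was at 8.39, 14.4, 12.2 and 5.36 CPM in KO against 5.03 to 10.65 in WT (0.56, interval -0.12 to 1.24, edgeR adjusted p = 0.378). Ier2 was at 6.75, 13.96, 17.6 and 10.01 CPM in KO against 7.07 to 10.1 in WT (0.49, interval -0.04 to 1.03, adjusted p = 0.322). Dusp1 was at 31.4, 38.7, 54.9 and 30.8 CPM in KO against 22.9 to 37.8 in WT (0.40, interval -0.05 to 0.84, adjusted p = 0.334), and passed only with no filter on low counts (adjusted p = 0.0346). Fosb was at 0.37 (interval -0.56 to 1.30). All 4 overlapped between genotypes, as did every other member, where 12.4% of genes of at least 1 CPM did not overlap.

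Arc and Npas4 were the members with negative fold changes at PND0, and neither passed. Arc was at 3.82, 5.73, 1.81 and 4.53 CPM in KO against 4.28 to 6.28 in WT (-0.38, interval -0.99 to 0.24, edgeR adjusted p = 0.533), and the value turned to 0.11 (adjusted p = 0.976) with the ribosomal RNA covariate. Npas4 was at 15.8 ± 4.95 CPM in KO and 16.52 ± 4.27 in WT (SD, n = 4 each; -0.07, interval -0.57 to 0.44, adjusted p = 0.919). Fos (0.09, interval -0.63 to 0.81; -0.34 with that covariate), Egr1 (0.24, interval -0.86 to 1.35) and Btg2 (0.27, interval -0.21 to 0.75) did not pass either, and their intervals allow changes in both directions.

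**Figure D3:**
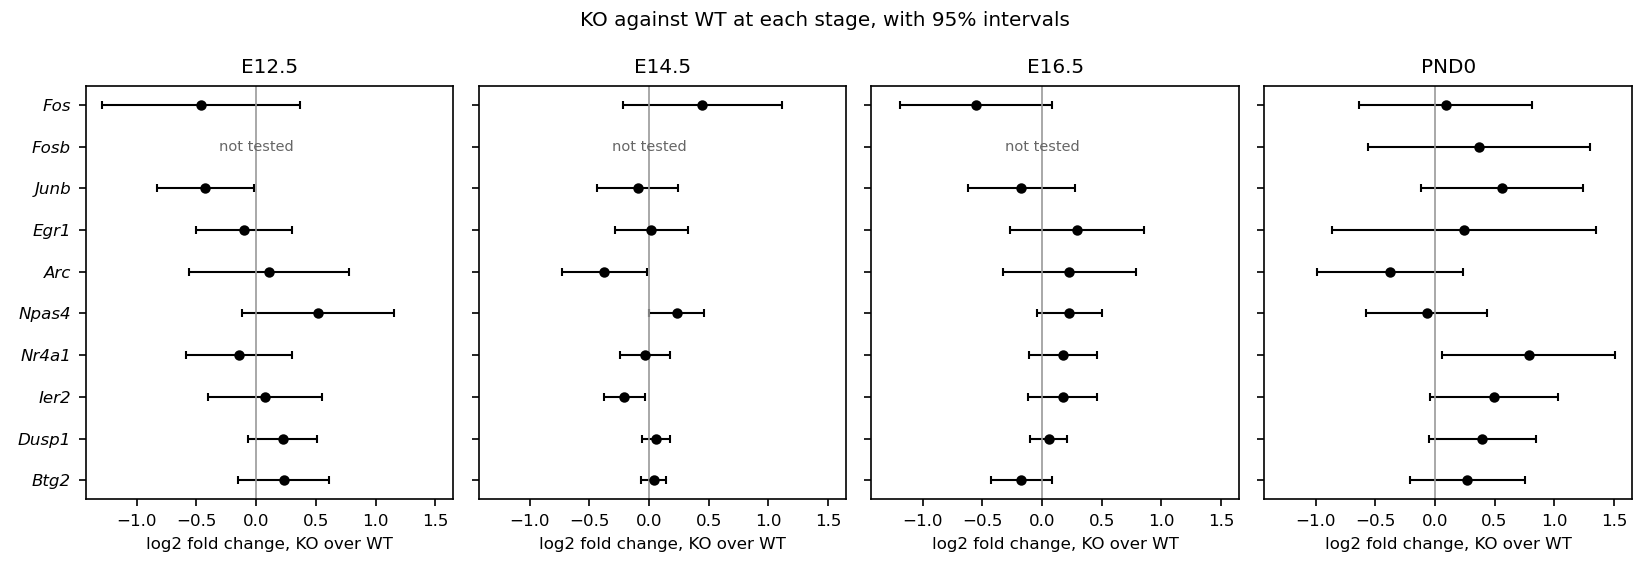
Log2 fold change of KO over WT for each gene at each of the 4 stages, with 95% intervals (n = 4 per group); Fosb was not tested before birth. At PND0 8 of 10 points lie to the right of 0 without a call, and the widest intervals there are those of Egr1 (-0.86 to 1.35) and Fosb (-0.56 to 1.30).

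Whether the KO difference itself changed with stage was tested over all 32 libraries, and 0 of 10 members passed, where 0.0256% of 19541 genes did. Nr4a1 gave the smallest p of the members, and the only one under 0.05 without adjustment, where 13.5% of genes were (edgeR unadjusted p = 0.021, adjusted p = 0.3), followed by Junb (unadjusted p = 0.0534, adjusted p = 0.377). Junb was at -0.43, -0.10, -0.17 and 0.56 over the 4 stages in order.

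Pooled over both genotypes, the spread between libraries of a group was highest at PND0 for the members. The SD of log2 CPM around the group means had a median over the members of 0.319, 0.143, 0.274 and 0.517 from the earliest stage to birth. For all genes of at least 1 CPM the median SD was 0.226, 0.104, 0.135 and 0.198, so that it was highest at E12.5. Within WT alone not every member was widest at birth: the highest Fos library was 1.48 times the lowest at PND0, against 2.13 times at E12.5 and 2.43 at E16.5, and for Arc it was 1.47 times against 1.98 and 2.63. In KO at PND0 those ratios were 3.71 for Fos and 3.16 for Arc. At PND0 all 10 members lay above that all-gene median, from Dusp1 at 0.358 to Fosb at 0.848. Egr1 went from 0.211 at E12.5 to 0.684 at PND0, and Nr4a1 from 0.267 to 0.519. Fos and Fosb had the lowest counts of the members before birth. At PND0 the lowest were those of Fosb (15 to 94) and Arc (32 to 111). Btg2 and Dusp1 had at least 233 in every library. The part of counting error in the spread was not tested.

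**Figure D4:**
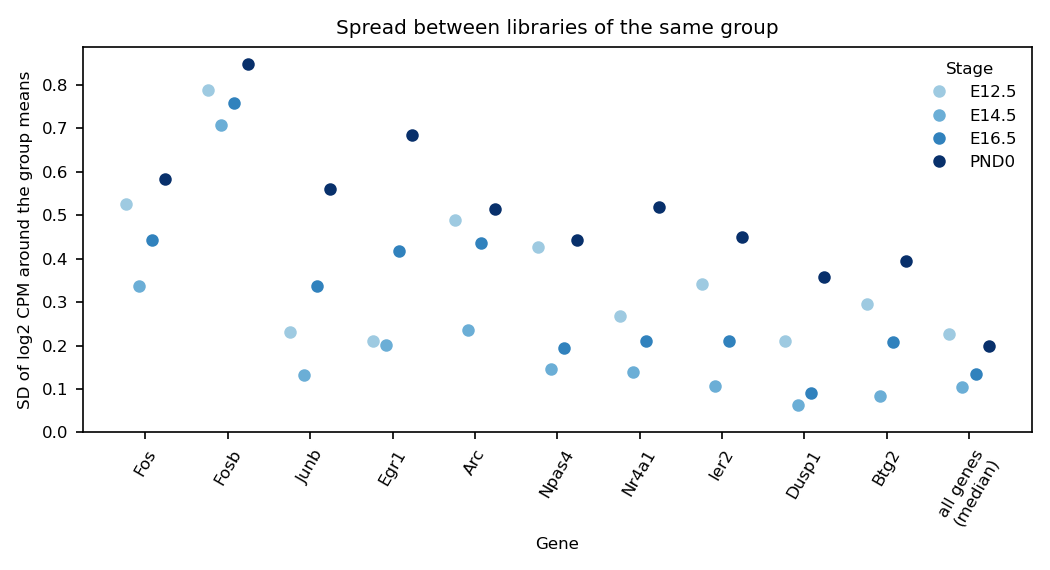
SD of log2 CPM between libraries around the group means (y axis), for each gene and for the median of all genes of at least 1 CPM, with 1 point per stage in darker blue for later stages. PND0 points are the highest for each of the 10 genes, from 0.358 to 0.848, and the median of all genes at PND0 is 0.198.

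Single libraries stood out across members. At E16.5, WT replicate 1 was the highest of its group in 6 of 10 members. WT replicate 4 at PND0 was the lowest of its group in 8 of 10 members, and KO replicate 4 in 6. KO replicate 2 was the highest of its group in 4 members, with Egr1 0.94 above the group mean on the log2 scale. KO replicate 3 was the highest in 5, with Fos at 0.98 and Fosb at 0.88 above the mean, yet the lowest for Arc and Npas4, at -0.98 and -0.70. In the same library Egr1, Nr4a1 and Junb were above the group mean, by 0.352, 0.551 and 0.363. KO replicate 3 also had the highest summed level of 8 erythroid markers, 2265 CPM, where the other KO libraries had 229 to 630 and WT libraries 197 to 263. Of those markers 7 were tested at PND0, all 7 had positive fold changes with a median of 1.89, and 0 passed (5 at an unadjusted p under 0.05, edgeR). Of the 8, Hbb-y, the embryonic globin, was at 0 in all newborn KO libraries and in 3 of 4 WT libraries. Choroid plexus markers ranged from 339 to 633 CPM in WT and from 626 to 1015 in KO. The part of these cells in the members' values was not tested. Without KO replicate 3 the Nr4a1 difference at PND0 was 0.58 (adjusted p = 0.422), and without WT replicate 4 it was 0.59 (adjusted p = 0.263).

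**Figure D5:**
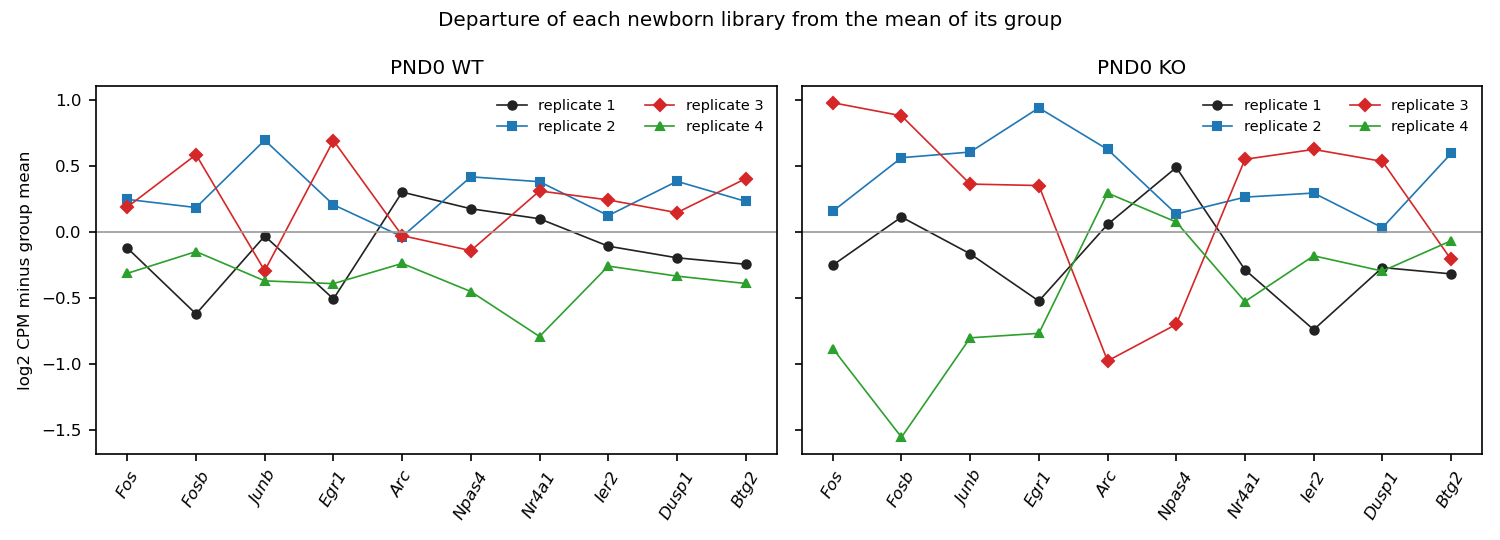
Departure of each newborn library from the mean of its own group (y axis, log2 CPM) across the 10 genes, WT on the left and KO on the right, with 1 line per library. WT replicate 4 lies under 0 for all 10 genes, and KO replicate 3 is the highest for Fos (0.98) and the lowest for Arc (-0.98).

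Gene length was also looked at, since differences at PND0 leaned with it. Over all genes the fold change of KO against WT ran against transcript length there (Spearman rho -0.338 across genes, which are not independent replicates). Genes of 1 to 3 kb had a median log2 fold change of 0.08 and those over 5 kb one of -0.14. The members' transcripts are 1.52 kb (Ier2) to 4.48 kb (Egr1). With offsets that remove that trend, Nr4a1 was at 0.73 (adjusted p = 0.365).

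The wider pathway was followed with lists of related genes. Among 26 other immediate early genes, 0 passed in any KO comparison by edgeR (1, 3, 1 and 4 at an unadjusted p under 0.05 from E12.5 to PND0, of 23, 23, 23 and 25 tested, where 4.7%, 8.73%, 11.5% and 18% of all genes were). At PND0 17 of 25 had positive fold changes, with a median of 0.22. In WT from E16.5 to PND0, 14 of 24 tested were called, 12 higher and 2 lower, with a median of 0.51 beside -0.006 over all genes, of which 53.2% were called, 26% as higher. The share called was thus near that of all genes. Sik1, a CREB-induced kinase, rose by 0.57 (SE 0.0696), the clock gene Per1 by 0.66 (SE 0.0972), Klf6 by 0.54 (SE 0.081) and Ccn2, a matrix protein, by 1.05 (SE 0.161). Over the whole course Nr4a3, the paralog of Nr4a1, rose by 3.84 (SE 0.213), from 5.02 ± 1.73 to 70.7 ± 9.44 CPM, and Egr3 by 2.90 (SE 0.287), from between 1.45 and 2.19 CPM to at least 9.36 CPM in every library. Jun, the partner of Fos, fell from E14.5 to E16.5 by 0.67 (SE 0.0689).

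Of 24 upstream regulators, all tested, 15 were called from E16.5 to PND0 (12 higher, 3 lower). Of all genes 53.2% were called at this step, 26% as higher and 27.2% as lower. In KO comparisons 0 were called (edgeR; 0, 5, 8 and 6 at an unadjusted p under 0.05 from E12.5 to PND0, beside 4.7%, 8.73%, 11.5% and 18% of all genes). Creb1, the cAMP-response factor, fell by 1.02 on the log2 scale (SE 0.0771), while its coactivator gene Crtc1 rose by 0.83 (SE 0.0826), Mef2d by 0.99 (SE 0.0936) and the SRF cofactor gene Mrtfb by 1.06 (SE 0.0976). Of 14 genes that follow neuronal activity later, 10 were called at this step (8 higher, 2 lower). Vgf, a secreted neuropeptide precursor, rose by 1.74 (SE 0.108) and Cdkn1a by 0.91 (SE 0.126), while Rgs2 and Nrn1 changed by -0.65 (SE 0.0988) and -0.69 (SE 0.12). All 9 called of 13 MAP kinase feedback genes were higher, among them Spry4 (1.47, SE 0.155), Spred2 (0.68, SE 0.104), Spry2 (0.70, SE 0.145) and Etv5 (0.60, SE 0.131). In KO against WT 0 genes of either list passed at any stage (edgeR; 0, 3, 2 and 5 of the 14 and 0, 1, 1 and 2 of the 13 had an unadjusted p under 0.05 from E12.5 to PND0, against those same shares of all genes).

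A further pair of lists marks cell stress, and its called shares from E16.5 to PND0 lay below the 53.2% of all genes (26% as higher and 27.2% as lower). Of 8 heat shock genes 3 were called from E16.5 to PND0, all higher: Hsp90aa1 (0.36, SE 0.0847), Bag3 (0.64, SE 0.221) and Hspb1 (0.68, SE 0.243). Of 10 tested hypoxia genes 5 were called, 4 higher, with Slc2a1 at 0.53 (SE 0.0927), Bnip3 at 0.61 (SE 0.115), Egln3 at 0.53 (SE 0.114) and Ddit4 lower at -0.73 (SE 0.142). In KO against WT 0 of either list passed at any stage by edgeR. An unadjusted edgeR p under 0.05 was found for 1, 2, 1 and 0 of the 8 heat shock genes from E12.5 to PND0. For hypoxia genes it was 1, 1, 2 and 0 of 10, 11, 10 and 11 tested. The shares of all genes were 4.7%, 8.73%, 11.5% and 18%. Summed levels at PND0 were 2293 to 3218 CPM in WT and 2836 to 3074 in KO for heat shock genes, and 664 to 1043 against 792 to 1059 for hypoxia genes. WT replicate 4, low in most members, had the lowest sum of its group in both lists. The same held for the other immediate early, upstream, delayed activity, neuron, progenitor, endothelial and microglia lists. It did not hold for the MAP kinase feedback, erythroid, meninges and choroid plexus lists.

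Genes whose departures from the group means were most like the members' mean departure, over the 32 libraries, were S1pr1 (Pearson r = 0.722), Maff (0.694), Arrdc3 (0.688), Sh2d3c (0.688) and Slc2a1 (0.687). They were picked for this likeness and share libraries and depth with the members, so r is a description. Without the 8 newborn libraries r was 0.457, -0.023, 0.219, 0.164 and 0.107. Maff, an immediate early gene of the wider list, read 4.32, 13.8, 13.2 and 3.63 CPM in the 4 newborn KO libraries, high in replicates 2 and 3 as most members were. Over the 8 group means the closest were Papss1 (r = 0.994), Gm43737 (0.993), Lpcat1 (0.991), Klf2 (0.99) and Tshr (0.986). These too were picked for likeness, on 8 points only, so r is again a description. The mean they follow is taken over members that rose and members that fell. Klf2, also of the wider list, went from 7.94 ± 0.761 CPM in WT at E12.5 to 13.8 ± 4.81 at PND0.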

How the data were processed

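Polyadenylated RNA of 32 whole mouse brains was sequenced as 150-base read pairs, per the labels' protocols. HISAT2, SAMtools, featureCounts and DESeq2 and the build mm10 are named in the submitters' processing notes, with no version or role, and strandedness of counting is not given in the sources used here. The authors deposited 1 table of raw counts per stage, with no normalization. Genes were placed with GENCODE M21 (GRCm38). Library totals set the precision: 3 counts came to at most 0.216 CPM, for counting error only.

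Each comparison was fitted on its own libraries with edgeR 4.0.16 (limma 3.58.1, R 4.3.3): TMM scaling, filterByExpr with a minimum count of 10 and total of 15, a robust quasi-likelihood fit and F test, and a Benjamini-Hochberg adjusted p under 0.05 over all genes tested. SE is the log2 fold change over the square root of F, and log2 CPM used a prior count of 2. On simulated counts all 4-fold changes and 93% to 100% of 2-fold changes were recovered. They were planted in well-expressed genes only, and all genes were drawn with the same dispersion. These shares therefore do not hold for members with low counts or with a wider spread. Alternatives were RLE scaling, no filter, DESeq2 1.42.0, other prior counts for the spread, a replicate block, 1 fit of all libraries, covariates of sex genes or ribosomal RNA, length offsets, and each library left out. Replicate numbers did not pair libraries.

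The members and lists were chosen with earlier results of these data known. All 10 members are given in every comparison, plus Dhcr7, up to 4 genes of smallest p past the threshold from each other list, and the 5 genes of most like pattern by each measure.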

Additional observations from a re-analysis of the deposited data

Results flagged for a closer look

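In 4 of the 80 groups of 4 libraries (5.0%) 1 library lay far from the other 3 by Dixon's 95% criterion, which sets the gap to the nearest neighbour against the group's range. Chance gives about 1 in 20. Fos in E16.5 WT replicate 1 was at 4.065 CPM, the highest of its group, and Junb in E12.5 KO replicate 4 was at 2.788 CPM, the lowest. Npas4 in E14.5 KO replicate 1 was at 11.96 CPM and Btg2 in E16.5 KO replicate 4 at 33.04 CPM, each the highest of its group. The library with the high Fos value had the highest share of the ribosomal RNA gene in its group, 3.75%. The KO libraries of that stage held 0.391% to 0.531%. With that share as a covariate the Fos difference between KO and WT at E16.5 was -0.14 (edgeR adjusted p = 0.815) in place of -0.56. Leaving the library out also gave -0.14, so covariate and library cannot be told apart. The cause was not tested.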

How the results depend on the processing

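Over 1498 alternative values for single members, 1460 kept their side of the threshold and their direction if called, 34 lost a call, 4 gained one and 0 of the called values reversed; 31 uncalled values changed sign. The lost calls were all in WT steps between neighbouring stages, and none was from E12.5 to PND0.

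In KO against WT at PND0, members past the threshold were 0, but 1 with no filter (Dusp1), 1 with the replicate block (Nr4a1 at 0.78, adjusted p = 0.0149), and 1, again Nr4a1, when all 32 libraries were fitted together. For WT from E14.5 to E16.5 they were 4 in that last fit and 4 to 6 with libraries left out.

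Counts over all genes moved more. For KO against WT at E12.5 the 3 genes became 30 with DESeq2, 6 with the replicate block, 52 in the fit of all 32 libraries and 1 to 5 with a library left out. At E14.5 the 94 became 146 with no filter, 4 in the fit of all libraries and 52 to 155 with a library left out. At E16.5 the 8 became 233 with no filter, 150 with DESeq2, 5 with the block, 3 in the fit of all libraries, 4 with the sex covariate and 3 to 14 with a library left out. At PND0 the 250 became 1091 with no filter, 921 with DESeq2, 1205 in the fit of all libraries, 2 with the ribosomal RNA covariate, 46 with length offsets and 35 to 263 with a library left out. For the change of the KO effect with stage the 5 became 11 with no filter, 346 with DESeq2, 0 with the block, 187 with the ribosomal RNA covariate, 9 with length offsets and 0 to 797 with a library left out. The causes were not tested.

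Same-numbered libraries of the 2 groups correlated between -0.177 and 0.378 in their departures, and in no comparison did every pair exceed 0.1, so the numbers are not used as pairs. The replicate block changed no other member call. Before birth, depth limits Fosb (1 to 17 counts) and Fos (7 to 63 counts). Neither litter nor strandedness could be checked.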
